A study of Mus musculus with 9 samples.

Results

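The genes described here encode the machinery that starts and elongates transcription: subunits of the RNA polymerases, the general transcription factors, the TAF proteins, Mediator and the elongation factors of the Supt and Ell families. Members were the probe sets with a single gene symbol that begins with Polr, Gtf, Supt or Ell, or with Taf or Med and a digit. This gave 79 of the 12488 probe sets on the array, for 60 genes. The rule itself reads only gene symbols. The samples were OB-6 cells, a mouse osteoblastic line, treated with parathyroid hormone (PTH) for 0, 30 or 60 min, with 3 arrays at each time and 9 in all. The study asked which genes PTH regulates in these cells. The 0 min arrays are its basal group. The PTH dose is not given in the sources used here. No untreated cultures of the later times were used here, so PTH and time in culture cannot be told apart.

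RNA polymerase II transcribes the protein-coding genes, polymerase I the large ribosomal RNA and polymerase III transfer RNA and 5S ribosomal RNA. General factors named TFIIA to TFIIH load polymerase II onto a promoter, TFIID recognises the promoter through the TATA-binding protein and its associated TAFs, and Mediator relays signals from activators bound elsewhere. After initiation the polymerase often pauses close to the start of the gene, and elongation factors such as Spt5, Ell and Ell2 act on its release and speed. PTH signals in osteoblasts largely through cAMP and the transcription factor CREB, which binds the cAMP response element.

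Pairs of arrays correlated at 0.891 to 0.980 over the 7884 tested probe sets, and the median correlation with the other arrays was lowest for 60 min replicate b, at 0.938. Of the 10 osteoblastic markers listed, 6 were measured, and Runx2, Sp7, Bglap and Spp1 were not. Of the 6, 5 passed the filter on low signal, namely Col1a1, Col1a2, Sparc, Alpl and Ibsp. The probe set of the PTH receptor gene Pth1r lay between 6.70 and 41.6 on all arrays and did not pass. The endothelial and chondrocyte lists had 0 of 4 and 0 of 2 measured genes past the filter. The haematopoietic list had 5 of 7 past the filter, namely Ctsk, Cd68, Csf1r, Acp5 and Cd79a, with Ctsk the brightest. Cd3e and Ptprc did not pass, with Ptprc at 18.1 or below. The summed signal of that list was 833 to 964 at 60 min and 908 to 1037 at 0 min. The summed signal of the osteoblastic list was 16369 to 19499 at 60 min and 14248 to 15906 at 0 min. That of the muscle list was 280.3 to 420.2 and 208 to 306, with 3 of 5 genes past the filter (Myod1, Myog and Ckm). That of the adipocyte list (1 of 3) was 104 to 127 and 99.5 to 121. The endothelial and chondrocyte sums were 81.1 to 95.3 and 27.5 to 37.6 at 60 min, against 29.3 to 45.3 and 12.8 to 18.1 at 0 min, all from probe sets below the filter. The part of these shifts in the results was not tested. The 3 prime to 5 prime ratio of the Gapdh control was 0.702 to 0.859 at 0 min, 0.666 to 0.818 at 30 min and 0.719 to 0.783 at 60 min, and that of actin 0.341 to 0.809, 0.302 to 0.657 and 0.563 to 0.874 at these times, so the times overlapped. In bulk RNA such as this, fewer cells that express a gene and less RNA per cell cannot be told apart.

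Promoter windows are shown for 4 of the genes that changed: Ell2, which fell on 2 of its 3 probe sets, Gtf3a, which rose on both of its tested probe sets, and Taf1a and Taf1b, subunits of a single polymerase I complex that both fell. Each window runs from 250 bases before to 50 bases after the RefSeq start, 5′ to 3′ on the gene's strand, in build GRCm38.p6. Capitals mark matches, on either strand, to any of the motifs searched. The full cAMP response element was taken as TGACGTCA, and its shorter core, which lies within the full one, as TGACG on its own. The AP-1 site was searched as the letters TGACTCA wherever they stood. The motif called a GC box here is GGGCGG and, like every motif but the short core, lies within none of the others. The ETS family site, bound by many related factors, was searched as CCGGAAG in the same way. The last motif, the classical TATA box of some promoters, was TATAAA with no flanking letters.
Ell2, chr13:75707234-75707533, plus strand: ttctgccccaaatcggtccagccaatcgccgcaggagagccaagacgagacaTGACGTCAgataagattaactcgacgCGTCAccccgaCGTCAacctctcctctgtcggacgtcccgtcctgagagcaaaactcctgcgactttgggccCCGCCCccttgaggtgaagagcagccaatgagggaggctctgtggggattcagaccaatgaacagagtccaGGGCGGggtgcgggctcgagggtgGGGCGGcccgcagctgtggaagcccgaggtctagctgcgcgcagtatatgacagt
Gtf3a, chr5:146948407-146948706, plus strand: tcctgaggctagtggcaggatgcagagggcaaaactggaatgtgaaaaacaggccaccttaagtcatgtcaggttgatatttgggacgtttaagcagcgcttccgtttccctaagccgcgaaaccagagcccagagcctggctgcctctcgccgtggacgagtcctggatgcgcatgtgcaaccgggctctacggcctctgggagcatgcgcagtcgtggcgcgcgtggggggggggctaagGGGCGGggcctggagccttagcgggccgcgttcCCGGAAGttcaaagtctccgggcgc
Taf1a, chr1:183388635-183388934, plus strand: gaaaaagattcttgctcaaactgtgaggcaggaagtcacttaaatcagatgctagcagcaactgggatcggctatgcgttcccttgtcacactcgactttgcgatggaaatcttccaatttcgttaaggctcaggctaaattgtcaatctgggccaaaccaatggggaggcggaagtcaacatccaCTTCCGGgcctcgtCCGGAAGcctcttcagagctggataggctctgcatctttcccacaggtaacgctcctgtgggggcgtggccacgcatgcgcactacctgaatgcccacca
Taf1b, chr12:24498331-24498630, plus strand: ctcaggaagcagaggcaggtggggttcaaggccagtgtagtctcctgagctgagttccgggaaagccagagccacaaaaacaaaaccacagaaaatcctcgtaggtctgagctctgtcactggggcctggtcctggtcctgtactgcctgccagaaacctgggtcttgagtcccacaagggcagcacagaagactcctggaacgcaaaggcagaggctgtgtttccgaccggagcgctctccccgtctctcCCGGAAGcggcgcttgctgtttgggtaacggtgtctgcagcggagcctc

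The Ell2 window holds a full cAMP response element that begins 198 bases before the start, 2 further TGACG cores and 3 GC boxes. The Gtf3a window holds a GC box and, 26 bases after the start, an ETS site. Both Taf windows hold ETS sites and neither holds a TGACG core. Taf1a has a second RefSeq start, whose window overlaps the one shown and holds 3 ETS sites. RefSeq windows were found for 53 of the 60 member genes. The full element occurs in 4 of these 53, or 7.55%, namely Ell2, Gtf2f1, Gtf3c1 and Taf11, and in 1.78% of the windows of 27025 genes (1 window a gene). For a gene with several starts, the window lowest in genome coordinates was counted. On the minus strand that is the start furthest downstream. Taf11 lies on the minus strand, and its counted window is inside the gene. The Taf11 window at the 5′ end of the gene holds no full element. The TGACG core occurs in 39.6% of member windows and in 20.7% of all, and GC boxes in 52.8% and in 35.6%. ETS sites occur in 28.3% of member windows and in 9.08% of all, TATA boxes in 15.1% and in 14.1%, and AP-1 sites in 3.77% and in 5.20%. Member windows were richer in G and C, with a median of 59.3%, against 52.7% over all genes, and in CpG pairs, with a median of 23 against 7. These matches describe letters in the windows only.

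Of the 79 member probe sets, 71 had enough signal to be tested, for 58 of the 60 genes. Testing required an intensity above 44.7 on 3 or more of the 9 arrays. A change was called where the limma p, adjusted by Benjamini-Hochberg over all 7884 tested probe sets, was under 0.05. Probe sets of 1 gene are told apart below by the suffix of their array names (at, f_at, g_at, i_at, r_at or s_at). The 8 that were not tested are the single probe sets of Med12l and Taf15, 2 of Polr1d, and 1 each of Polr1a, Polrmt, Taf1d and Gtf3a. Changes are on the log2(intensity + 11.8) scale, which understates those of dim probe sets.

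After 60 min of PTH, 9 member probe sets of 7 genes had changed. Gtf3a, Polr2f and Gtf2h4 rose, and Ell2, Taf1a, Taf1b and Med1 fell. That is 12.7% of the tested members, against 13.1% of all tested probe sets, so the share near the background is not a result about these genes as a group. By direction, 4 of 71 members (5.63%) rose against a background of 4.35%, and 5 (7.04%) fell against 8.73%. At an unadjusted p under 0.05 the count was 30 of 71, or 42.3%, against 32.8% of all tested probe sets. The median log2 change was 0.06 over the tested members and 0.03 over all tested probe sets.

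**Figure D1:**
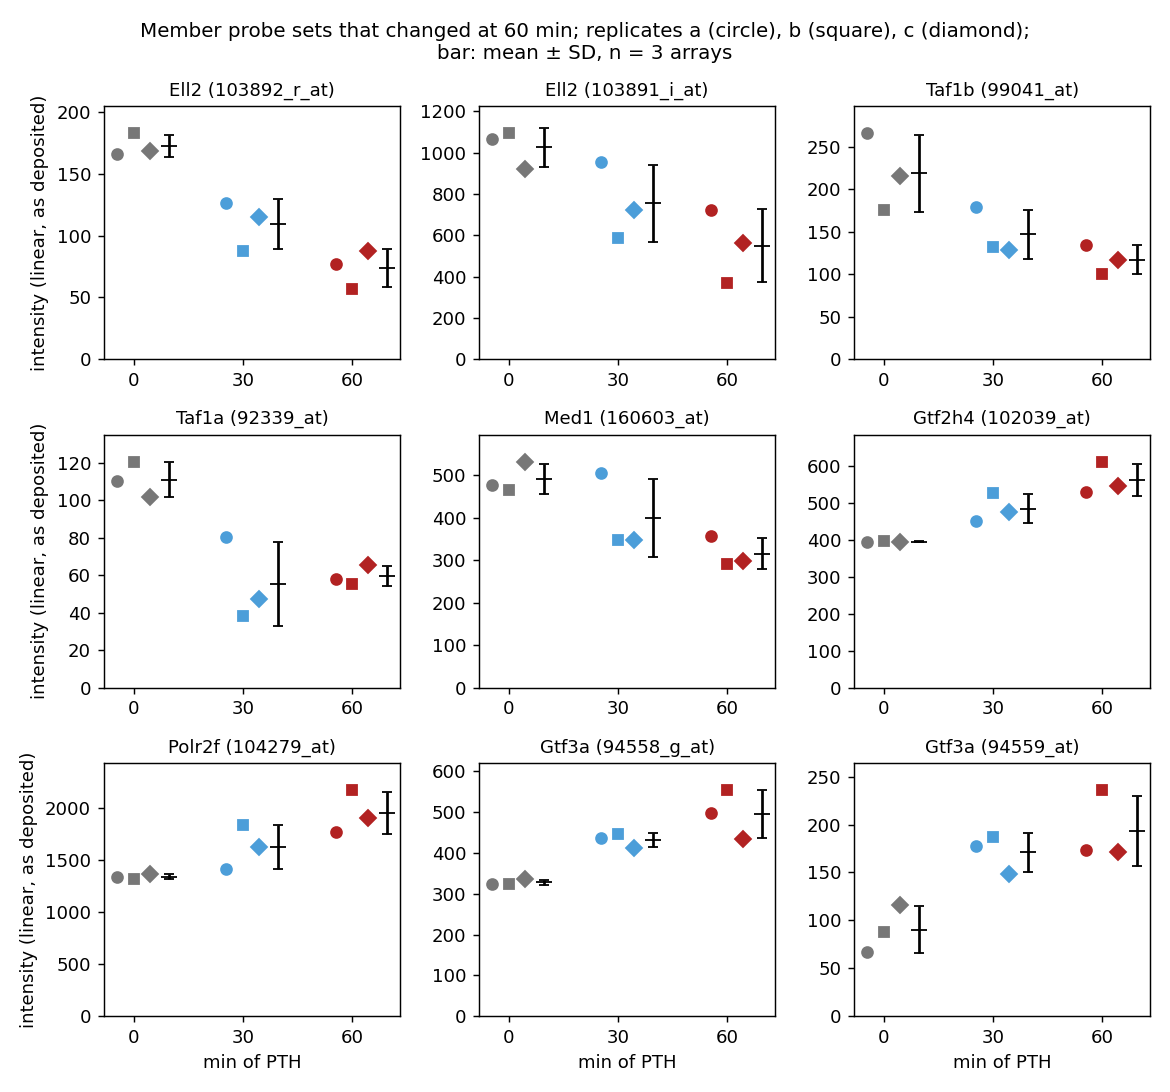
Intensity (linear, as deposited) of the 9 member probe sets that changed at 60 min, on each array at 0, 30 and 60 min of PTH. Circles, squares and diamonds are replicates a, b and c, and the bar is the mean ± SD of 3 arrays. In every panel the 3 arrays at 60 min lie wholly on one side of the 3 at 0 min.

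Gtf3a encodes TFIIIA, the zinc finger protein that binds the 5S ribosomal RNA gene and its product. Its tested probe set with the suffix at had intensities of 67.5, 87.8 and 116 at 0 min, of 178, 187 and 148 at 30 min and of 173, 236 and 172 at 60 min. All 6 treated arrays lay above all 3 arrays at 0 min. The mean was 194 ± 36.6 at 60 min and 90.3 ± 24.2 at 0 min (SD, n = 3 arrays each), a log2 change of 1.02 (SE 0.20, limma adjusted p = 0.0142). Its g_at probe set had 324, 325 and 335 at 0 min, 437, 447 and 413 at 30 min and 497, 554 and 435 at 60 min. The treated arrays again lay above those at 0 min without overlap, and the log2 change at 60 min was 0.57 (SE 0.12, limma adjusted p = 0.0159). The remaining Gtf3a probe set, designed on the same source sequence as the g_at one, stayed at 33.7 or below on every array and was not tested. These probe sets of 1 source sequence thus differed widely in signal. At 30 min the changes were 0.86 and 0.39, with limma adjusted p of 0.0748 and 0.132, and neither probe set passed. The at call was lost when 0 min replicate a or b was left out, and the g_at call when any single 0 min array was, with limma adjusted p of at most 0.0722.

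The other members that act on polymerase III promoters encode subunits of TFIIIC. None of their 5 tested probe sets passed the test at 60 min. Gtf3c5 had 208, 249.9 and 242 at 0 min, 243, 299.8 and 277 at 30 min and 279, 312 and 297 at 60 min. Its 60 min arrays lay above those at 0 min without overlap, with a log2 change of 0.33 (95% interval 0.05 to 0.61, limma adjusted p = 0.102). Gtf3c1, the largest subunit, had a log2 change of 0.27, and Gtf3c2 and both Gtf3c4 probe sets lay between -0.08 and 0.23.

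Among the polymerase II subunits, Polr2f rose. It encodes a small subunit that RNA polymerases I, II and III share. Its intensity was 1335, 1323 and 1368 at 0 min, 1411, 1837 and 1626 at 30 min and 1775, 2172 and 1904 at 60 min. Both later times lay above 0 min on all arrays. The mean was 1951 ± 202 at 60 min and 1342 ± 23.2 at 0 min (SD, n = 3 arrays each), a log2 change of 0.53 (SE 0.12, limma adjusted p = 0.0207). The call was lost without any of the 0 min arrays, with limma adjusted p of at most 0.0841.

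The other measured subunits common to the nuclear polymerases, encoded by Polr2e, Polr2l and Polr2h, had log2 changes of 0.47, 0.44 and 0.37 at 60 min and did not pass. Polr2e had 401, 442 and 526 at 0 min, 539, 672 and 659 at 30 min and 559, 809 and 563 at 60 min. Polr2l had 734, 749.6 and 756 at 0 min, 779, 1059 and 934 at 30 min and 876, 1271 and 949 at 60 min. Polr2h had 364, 383 and 370.2 at 0 min, 425, 469 and 441 at 30 min and 429, 548 and 481 at 60 min. For each of these genes the arrays at 60 min lay above those at 0 min, and limma adjusted p lay between 0.0605 and 0.0840. Polr2a, which encodes the largest subunit and carries the repeated tail that kinases phosphorylate, did not pass on either probe set, with changes of -0.20 (95% interval -0.51 to 0.11) and -0.02 (-0.29 to 0.25). Polr2m, whose product associates with polymerase II and restrains initiation, had 1285, 1255 and 1180.4 at 0 min, 1638, 1285 and 1219 at 30 min and 1249, 1211 and 1271 at 60 min. Its log2 change was 0.00, with an interval of -0.26 to 0.27. Over all 12 tested polymerase II probe sets, 10 had a change above 0 at 60 min, with a median of 0.29, and 1 passed the test. A change above 0 was found for 39 of the 71 tested members and 4212 of all 7884 tested probe sets. The subunits specific to polymerase II other than Polr2a, encoded by Polr2c, Polr2d, Polr2g, Polr2i and Polr2j, lay between 0.08 and 0.34.

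**Figure D2:**
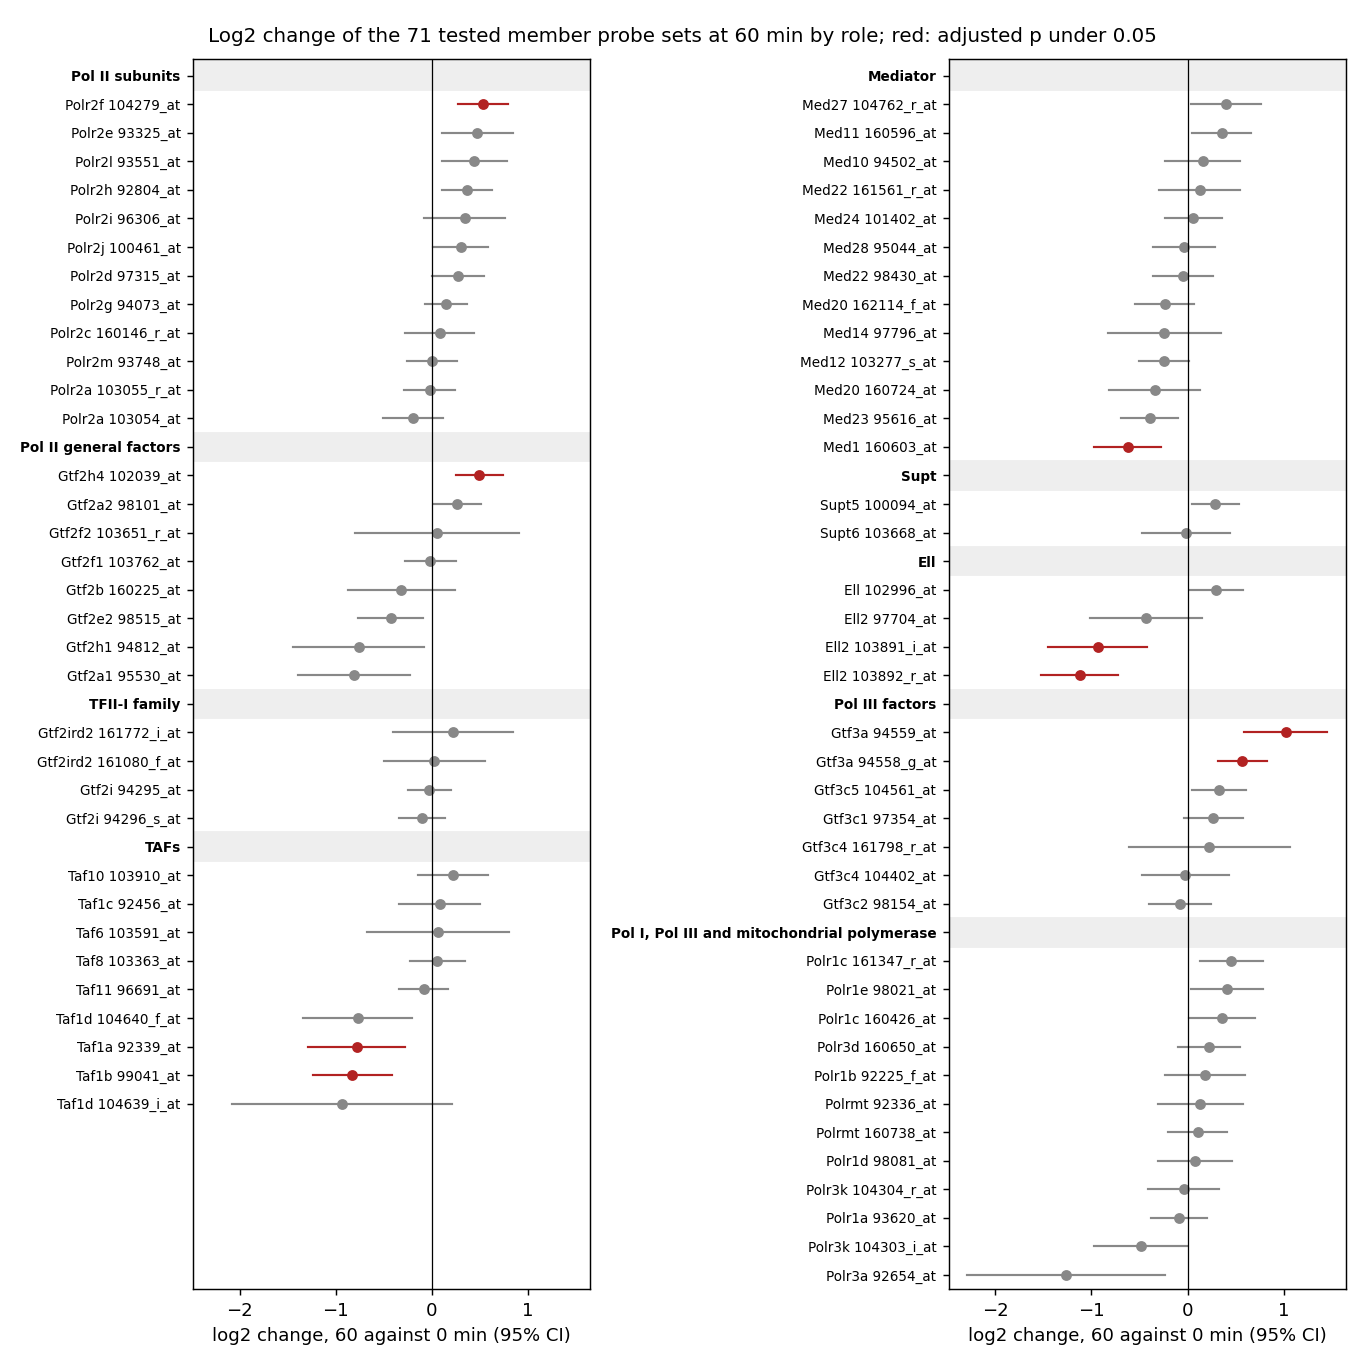
Log2 change at 60 against 0 min of the 71 tested member probe sets, grouped by role and ordered by size, with 95% intervals from the limma fit. Red marks the 9 probe sets with an adjusted p under 0.05. Polymerase II subunits lie mostly right of 0, while several TAFs, Ell2 and Polr3a lie left of it.

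Of the general factors that load polymerase II, Gtf2h4 rose. It encodes a subunit of TFIIH, the complex that opens promoter DNA and also takes part in DNA repair. Intensities were 393, 397 and 395 at 0 min, 451, 527 and 476 at 30 min and 530.1, 611 and 545 at 60 min. Every treated array lay above every array at 0 min. The mean was 562 ± 43.1 at 60 min and 395 ± 1.80 at 0 min (SD, n = 3 arrays each), a log2 change of 0.49 (SE 0.11, limma adjusted p = 0.0207). The spread at 0 min was small for this probe set, and the call was lost without any of the 0 min arrays, with limma adjusted p of at most 0.0849.

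A second TFIIH subunit gene, Gtf2h1, had 158, 165 and 175 at 0 min, 202, 131 and 205 at 30 min and 131, 46.5 and 127 at 60 min. The 60 min arrays lay below 0 min, replicate b by far the most, and the log2 change of -0.76 did not pass (limma adjusted p = 0.119). The TFIIA genes pointed in opposite directions, neither past the test. Gtf2a1 had a log2 change of -0.81 (limma adjusted p = 0.0650), with 131, 70.2 and 131 at 60 min against 196, 199 and 192 at 0 min. Gtf2a2 had a log2 change of 0.27 (limma adjusted p = 0.122), with 636, 668 and 636 at 60 min against 526, 563 and 519.9 at 0 min. Gtf2e2 of TFIIE stood at -0.43 and Gtf2b, which encodes TFIIB, at -0.32, with Gtf2b at 159.6 on 60 min replicate b against 359 and 345 on replicates a and c. Gtf2f1 and Gtf2f2, which encode TFIIF, stood at -0.02 and 0.05. The interval of Gtf2f2 ran from -0.80 to 0.91, so a sizeable change in either direction could not be detected.

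Gtf2i encodes TFII-I, a factor that binds initiator elements and responds to signalling. Its at probe set had 729, 709 and 762 at 0 min, 621, 683 and 642 at 30 min and 712, 677 and 772 at 60 min. The s_at probe set had 428, 435 and 449 at 0 min, 366, 409.9 and 403 at 30 min and 428, 369 and 424 at 60 min. Both were below 0 min on all 30 min arrays and overlapped it at 60 min, and neither change passed at either time, with log2 changes of -0.17 and -0.15 at 30 min and of -0.03 and -0.10 at 60 min. The probe sets of the related Gtf2ird2 stood at 0.02 and 0.22 at 60 min.

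Among the TAFs, Taf1a and Taf1b fell. Both encode subunits of SL1, the complex of the TATA-binding protein that loads polymerase I onto the ribosomal RNA promoter. Taf1b had 266, 175 and 215 at 0 min, 179.6, 133 and 129 at 30 min and 134, 101 and 117 at 60 min. Its 60 min arrays lay below every 0 min array, with 117 ± 16.9 at 60 min and 219 ± 45.4 at 0 min (SD, n = 3 arrays each), and it fell by 0.83 on the log2 scale (SE 0.19, limma adjusted p = 0.0222). Taf1a had 111, 121 and 102 at 0 min, 80.7, 38.2 and 47.4 at 30 min and 58.1, 55.4 and 65.3 at 60 min. All 6 treated arrays lay below 0 min. It fell by 0.78 at 60 min (SE 0.23, limma adjusted p = 0.0472), with 59.6 ± 5.12 at 60 min and 111 ± 9.35 at 0 min, and stood at -0.92 at 30 min (limma adjusted p = 0.0826). The call of Taf1a stands just past the threshold. It was lost in 7 of the 9 fits without 1 array and in 5 of 10 other fits, those with quantile normalization, cyclic loess, 75th percentile scaling, a constant at the 5th percentile or no filter. Leaving out any single 0 min array ended the Taf1b call, as did leaving out 60 min replicate b, where its limma adjusted p was 0.0543.

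The remaining SL1 genes did not pass. The Taf1d f_at probe set had 153, 147 and 137 at 0 min, 139.7, 67.7 and 70.8 at 30 min and 98.02, 58.8 and 88.9 at 60 min, with a log2 change of -0.77 (limma adjusted p = 0.0687). Its other tested probe set varied among the 0 min arrays themselves, from 56.4 to 151, and stood at -0.94 with an interval of -2.08 to 0.21. Taf1c had 79.5, 92.6 and 74.7 at 0 min and 78.0, 88.5 and 96.4 at 60 min, a log2 change of 0.08 with an interval of -0.34 to 0.50. The TAFs of TFIID and its relatives, Taf6, Taf8, Taf10 and Taf11, had changes between -0.08 and 0.22. Of these, Taf10 had 496, 645 and 649 at 0 min, 637, 910.2 and 619.9 at 30 min and 653, 679.8 and 753 at 60 min, and Taf11 had 331, 365 and 399 at 0 min, 326, 369.9 and 365 at 30 min and 347, 347 and 333 at 60 min.

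In Mediator, Med1 fell. It encodes the subunit through which nuclear receptors contact the complex. Its intensity was 477, 464 and 531 at 0 min, 506, 347 and 347 at 30 min and 356, 291 and 298 at 60 min. The 60 min arrays lay below 0 min without overlap, whereas 30 min replicate a still stood within the 0 min range. The mean was 315 ± 36.0 at 60 min and 491 ± 35.6 at 0 min (SD, n = 3 arrays each), and the log2 change was -0.62 (SE 0.16, limma adjusted p = 0.0311). Leaving out any single 0 min array, or 60 min replicate b or c, ended the call, with limma adjusted p of at most 0.102.

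The other 12 tested Mediator probe sets did not pass at either time, and their log2 changes at 60 min lay between -0.40 and 0.40. Med23, at the lower end, had 145, 172 and 178 at 60 min against 227, 219 and 215 at 0 min (limma adjusted p = 0.0768). Med27, at the upper end, had 591, 545 and 600.1 at 0 min, 579, 746 and 556 at 30 min and 593, 879 and 865 at 60 min, so its times overlapped. Med12, a subunit of the kinase module, had 537, 477 and 424 at 0 min, 355, 334 and 324 at 30 min and 399, 387 and 418 at 60 min. It was below 0 min on all 6 treated arrays, with log2 changes of -0.49 at 30 min (limma adjusted p = 0.0808) and -0.24 at 60 min (0.177). Probe sets of Med22 differed in sign, at 0.13 and -0.04, with overlapping times for both at 60 min. The Med22 r_at probe set had 856, 617 and 795 at 0 min, 1063, 880.4 and 1039.7 at 30 min and 597, 985 and 931 at 60 min.

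Of the elongation factors, Ell2 fell. Its product joins the super elongation complex and is known in plasma cells for raising the output of secreted immunoglobulin transcripts. Its r_at probe set had 166, 183 and 169 at 0 min, 127, 87.3 and 115 at 30 min and 76.8, 57.0 and 87.3 at 60 min. Arrays at both later times lay below every array at 0 min. The mean was 73.7 ± 15.4 at 60 min and 172 ± 9.05 at 0 min (SD, n = 3 arrays each), and the log2 change was -1.12 (SE 0.18, limma adjusted p = 0.00849). This call remained in all 9 fits without 1 array, with limma adjusted p between 0.0059 and 0.0493, the only one of the 9 calls to do so. The i_at probe set, designed on the same source sequence, had 1065, 1094 and 919.7 at 0 min, 953, 587 and 725 at 30 min and 721, 367 and 561 at 60 min. It fell by 0.93 at 60 min (SE 0.23, limma adjusted p = 0.0293), and this call ended when any single 0 min array, or 60 min replicate b or c, was left out. Without replicate b of 60 min the change was -0.68 (limma adjusted p = 0.0593). The remaining probe set, from another source sequence, had 42.3, 51.8 and 47.1 at 0 min and 38.8, 20.2 and 39.2 at 60 min, a change of -0.43 that did not pass.

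Ell, the founding gene of that family, did not follow Ell2. It had 198, 190.3 and 185 at 0 min, 209, 254 and 211 at 30 min and 228, 262 and 225 at 60 min, all treated arrays above 0 min, with a log2 change of 0.30 (95% interval 0.02 to 0.58, limma adjusted p = 0.129). Supt5, whose product Spt5 both holds the paused polymerase and aids elongation, had 392, 426 and 373 at 0 min, 432, 466 and 409 at 30 min and 473, 521 and 471 at 60 min, with a log2 change of 0.29 (limma adjusted p = 0.100). Supt6, a histone chaperone that travels with the polymerase, had 387, 305 and 476 at 0 min, 378, 471 and 354 at 30 min and 432, 282 and 446 at 60 min, with full overlap and a change of -0.01 (95% interval -0.47 to 0.44).

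Besides the shared Polr2 subunits described above, of which Polr2f rose, the members for polymerases I and III have symbols that begin with Polr1 or Polr3, and the mitochondrial polymerase is Polrmt. Of the 12 tested probe sets with Polr1, Polr3 or Polrmt symbols, none was called by limma in any of the contrasts between times. Polr1c, shared by polymerases I and III, had 513, 514 and 548 at 0 min, 533, 748 and 649 at 30 min and 585, 827 and 636 at 60 min, with a log2 change of 0.36 (limma adjusted p = 0.141), and its other probe set stood at 0.45 (0.0661). Polr1e had 52.4, 52.3 and 49.1 at 0 min, 74.5, 64.9 and 63.8 at 30 min and 78.6, 68.6 and 69.4 at 60 min. For Polr1c at 60 min and Polr1e at both times the arrays did not overlap 0 min. Polr3a, the largest subunit of polymerase III, had 82.3, 70.7 and 90.7 at 0 min, 82.4, 59.5 and 17.1 at 30 min and 13.2, 19.9 and 60.4 at 60 min. Its change of -1.27 was the lowest of all members, but the treated arrays varied widely, its interval ran from -2.30 to -0.24, and it did not pass (limma adjusted p = 0.0924). Polrmt had 236, 229.9 and 267 at 0 min, 259, 272 and 237 at 30 min and 251, 313 and 233 at 60 min, with a change of 0.11.

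At 30 min, limma called 0 of the 71 tested member probe sets, against 0.939% of all tested probe sets. An unadjusted p under 0.05 was found for 16, or 22.5%, against 17.9% of all. With limma's array weights 16 were called higher and 10 lower, together 36.6% of the members, against 30.2% of all tested probe sets in that fit. The lowest adjusted p was that of the Gtf3a at probe set, at 0.0748. For 17 members all 30 min arrays lay above and for 6 all lay below 0 min, together 32.4%, against 30.6% of all tested probe sets. By direction the shares were 23.9% above and 8.45% below, each against 15.3%. Between 60 and 30 min, limma again called 0 members, against 0.0254% of all. At an unadjusted p under 0.05 there were 5 members (7.04%, background 9.07%). Array weights called 5 (7.04%, against 10.6% of all in that fit). In this contrast, which uses none of the 0 min arrays, the lowest change was -0.84 for Gtf2h1 (95% interval -1.53 to -0.16), and the Ell2 r_at probe set stood at -0.51 (-0.91 to -0.10) and Polr2f at 0.27 (0.01 to 0.52). The F test over all times called 3 members, the Ell2 r_at and both tested Gtf3a probe sets, with limma adjusted p of 0.0230, 0.0423 and 0.0325, against a background of 4.64%. The smallest p that an exact permutation test allows with 3 and 3 arrays is 0.1, so none was run.

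Between 60 and 0 min, all 3 arrays lay above 0 min for 20 members and below it for 15, together 49.3%, against 40.7% of all tested probe sets. By direction the shares were 28.2% against 20% above and 21.1% against 20.7% below. The members that fell had a median log2 difference from the 0 min mean of -1.02 on 60 min replicate b, -0.64 on a and -0.82 on c. For the members that rose the medians were 0.71 on b, 0.50 on a and 0.48 on c, so b was the furthest in both directions. At 30 min the array furthest from 0 min was also replicate b, with -0.79 for the members that fell and 0.44 for those that rose. Both groups were picked by the 60 against 0 min test on the same arrays. Their medians therefore describe the spread between arrays and lend the calls no support. Without 60 min replicate b, 4 members were called higher and 1 lower, together 7.04%, against 6.70% of all tested probe sets in that fit.

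**Figure D3:**
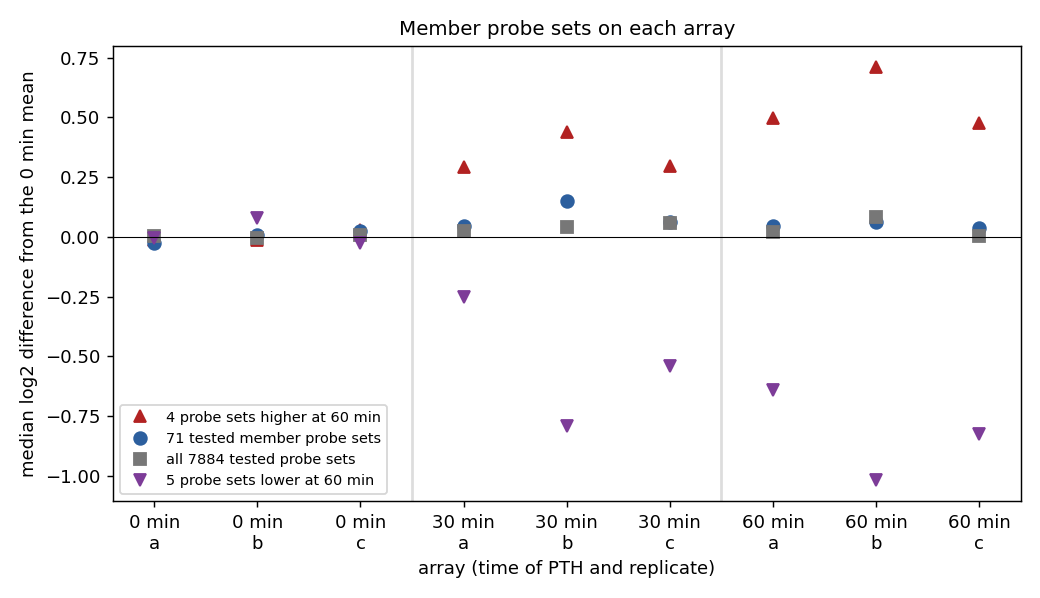
Median log2 difference from the 0 min mean on each of the 9 arrays, for the 4 member probe sets higher at 60 min, the 5 lower at 60 min, all 71 tested members and all 7884 tested probe sets. The 2 called groups move apart from 0 min on every treated array, most on replicate b of each time, while the medians of all members and of all probe sets stay between -0.02 and 0.15.

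The genes that rose were compact and most of those that fell were long. Gene spans in GRCm38.p6, introns included, were 6.96 kb for Gtf3a, 10.4 kb for Polr2f and 6.02 kb for Gtf2h4. They were 64.9 kb for Ell2, 60.0 kb for Taf1b, 41.2 kb for Med1 and 21.3 kb for Taf1a. With 1 probe set per gene, the 58 tested member genes all had a span, and Spearman's correlation of span with the change at 60 min was -0.51 across genes. Across the other 5870 tested genes it was -0.36, so the relation was not confined to the transcription machinery. With the tested genes in 4 equal bins by span, the shortest bin, up to 8.38 kb, held 20 member genes with a median log2 change of 0.25 and other genes with one of 0.19. In the next bin, up to 19.9 kb, the medians were 0.06 for 13 members and 0.10 for the others, and in the bin up to 44.8 kb, -0.20 for 15 members and -0.03 for the others. Among the longest, the medians were -0.06 for 10 members and -0.18 for the others, so the members did not follow a steady order there. These 10 members ranged from -0.93 to 0.40. Genes are not independent replicates, all points share the same 9 arrays, and signal also went with the change, with a Spearman correlation of 0.35 between mean intensity and change in members and 0.16 in the others.

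**Figure D4:**
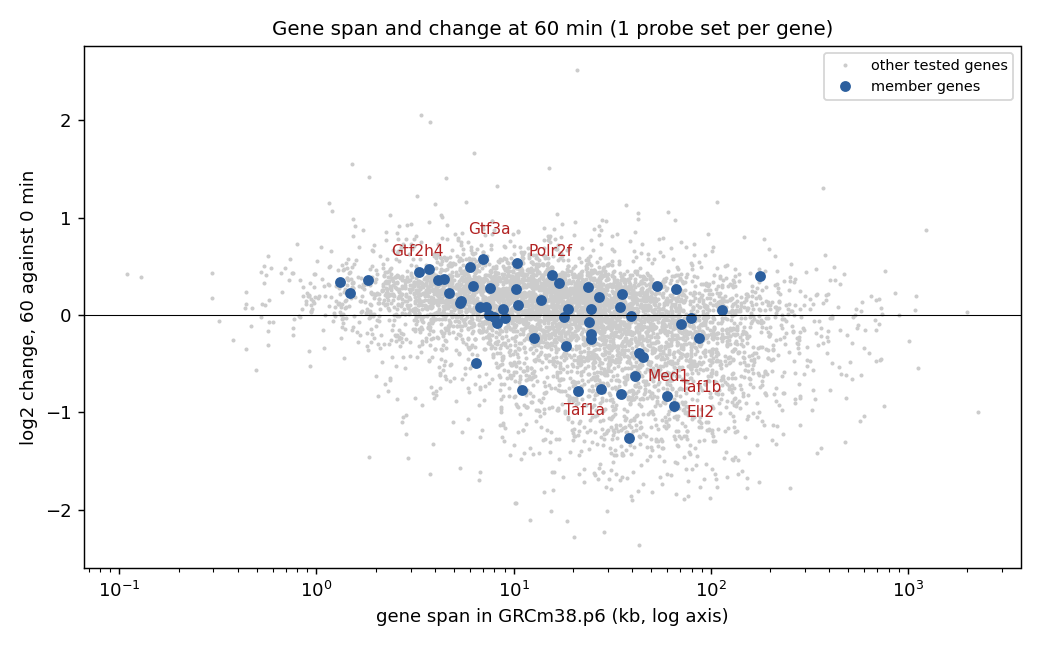
Log2 change at 60 against 0 min by gene span in kb (log axis) for the 58 tested member genes (blue) and the 5870 other tested genes (grey), with 1 probe set per gene. The member genes that changed are named, and the 3 that rose lie at shorter spans than the 4 that fell.

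A list of 79 further genes of the same pathway, outside the symbol rule, had 50 genes on the array and 60 tested probe sets. At 60 min 3 of the 60 rose and 8 fell, against backgrounds of 4.35% and 8.73%, with a median log2 change of -0.06, and 0 were called at 30 min. The kinase module of Mediator, to which Med12 belongs, had lower signal for Cdk8 and Ccnc. Cdk8, its kinase, had 329, 190.2 and 274 at 60 min against 410.4, 421 and 419 at 0 min, a log2 change of -0.67 (SE 0.18, limma adjusted p = 0.0397). Ccnc, the cyclin partner of Cdk8, had 67.1, 30.3 and 55.4 at 60 min against 138, 175 and 148 at 0 min, a log2 change of -1.44 (SE 0.31, limma adjusted p = 0.0194). Both lay wholly below 0 min.

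Of the elongation genes in that list, Eloc, a subunit of elongin and of ubiquitin ligases, fell on all 3 of its probe sets, with log2 changes of -1.61, -1.17 and -1.34 (limma adjusted p = 0.0153, 0.0308 and 0.0197). The Eloc probe set with the largest change had 241, 118.9 and 301 at 60 min against 628, 614 and 729 at 0 min. Cdk9, the kinase of P-TEFb that releases paused polymerase, rose by a log2 change of 0.65 (limma adjusted p = 0.0309), with 624, 749 and 594 at 60 min against 372, 504 and 374 at 0 min. Nelfe, a subunit of the pausing factor NELF, rose by 0.55 (0.0197), with 1000.2, 1215 and 1064 at 60 min against 764, 756 and 707 at 0 min. Mllt3, a component of super elongation complexes, fell by 0.47 (0.0406). Larp7, which binds the 7SK RNA that holds P-TEFb inactive, fell by 0.80 on 1 probe set (0.0250) and stood at -0.48 and 0.99 on the other two, so its probe sets did not move together. Kat2b, an acetyltransferase that can replace Kat2a in SAGA, fell by 0.69 (0.0472), a call just past the threshold. Maf1, a repressor of polymerase III, rose by 0.57 (0.0337), with 1581, 2081 and 1644 at 60 min against 1150.5, 1119 and 1263 at 0 min. Each of these values in parentheses is a limma adjusted p. Whether the calls of this list, Cdk8 and Ccnc included, hold with an array left out or in the other fits was not checked.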

How the data were processed

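Total RNA from OB-6 cells was measured on 1-colour arrays, 9 in all. The authors deposited linear intensities, 1 per probe set and array. How they summarised and scaled the intensity values is not given in the sources used here, but without 2% of the probe sets at each end every array has a mean of 250.1 or 250.2, so the deposited values were used as they stand. The labels do not say whether replicates a, b and c were separate cultures, so the p-values cover only the spread between these arrays, possibly a technical one, and 3 arrays a time limit their precision.

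Intensities were converted to log2(intensity + 11.8), where 11.8 is the 20th percentile over all values. Probe sets above the 40th percentile on at least 3 arrays were kept and 66 control probe sets left out. One limma 3.58.1 model in R 4.3.3, with 1 mean for each time, took in the 9 arrays (eBayes with a variance trend, 6 residual and 4.68 prior degrees of freedom), and p-values were adjusted by Benjamini-Hochberg over all 7884 probe sets. The script was tested on simulated arrays. Symbols came from the platform annotation. All 79 members had an entry in the GRCm38.p6 gene table, and 0 symbols changed. Another 8 probe sets with several symbols touch the rule and were left out. The genes named by rule are those called in any contrast and the 2 with the highest mean intensity in each role. Other members with values per array go beyond that rule. They include some of the largest changes of their roles that did not pass, so they do not represent the remaining members. The members and lists were chosen with earlier results of these data known. Promoter windows are RefSeq's. Plots used matplotlib 3.10.9 (Python 3.11.15). Alternatives covered the constant, filter, scaling, fit, array weights, replicate block and each array left out.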

Additional observations from a re-analysis of the deposited data

How the results depend on the processing

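The members named by rule were followed through all alternatives run, and 0 of their called results reversed direction. The alternative fits share most or all of their arrays with the main fit, so a reversal was unlikely in advance. The genes of the further pathway list were not followed in this way. Counts moved most with limma's array weights, which gave 17 members higher and 10 lower at 60 min, 16 and 10 at 30 min, 5 between 60 and 30 min, 33 by the F test and a median change of -0.00095 at 60 min. These fits called 38% of the members and 31.7% of all tested probe sets at 60 min, 36.6% and 30.2% at 30 min, and 7.04% and 10.6% between 60 and 30 min. For the F test that share was taken in the main fit only. Its other counts in this section therefore have no background and are not a result about the members. Over the fits without 1 array, members called higher at 60 min ranged from 0 (without 0 min replicates a or b) to 7 (without 60 min replicate a) and members called lower from 1 (when any single 0 min array, or replicate b of 60 min, was left out) to 7. The share of all tested probe sets called at 60 min moved with them, between 0.977% without 0 min replicate a (members 1.41%) and 20.1% without 60 min replicate a (members 19.7%). At 30 min the higher and the lower counts each ranged from 0 to 3, both highest without 60 min replicate b (members 8.45%, all 7.06%), and the F test count from 0 to 9. The member median ranged from 0.0100 to 0.0653 at 60 min and from 0.0239 to 0.112 at 30 min. It was 0.12 at 60 min after 75th percentile scaling and 0.11 after quantile normalization, which moved the median of all tested probe sets to 0.10 and 0.08. A fit of the 2 times alone called 2 members higher at 30 min (members 2.82%, all 4.93%), and the F test called 1 member without a filter. The cause of these shifts was not tested.

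With the replicate letter as a block (replicate block), 1 member was called higher at 30 min, 6 higher and 7 lower at 60 min, and 7 by the F test. At 60 min this was 18.3% of the members and 18.3% of all tested probe sets, and at 30 min 1.41% and 3.29%. Same-letter arrays of different times correlated between -0.13 and 0.30 in their deviations from the time means, and different-letter arrays between -0.27 and 0.18. The highest values joined the 30 and 60 min arrays of replicate a, at 0.30, and of replicate b, at 0.25. At 0 min, replicate c correlated best with 60 min replicate b, at 0.18, and with 60 min replicate c at -0.13. The letters were not taken as pairs in the main fit. Whether the treated arrays share an effect of the letter was not tested.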
